A study of Mus musculus with 2 samples.

Results

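The T cell receptor beta variable (Trbv) genes encode the variable domain of the receptor's beta chain. All genes whose symbol starts with Trbv were taken, which gave 35 of the 31053 genes in the files. Of these, 22 are annotated as variable genes and 13 as variable pseudogenes. Single-cell RNA was measured from the start of transcripts (10x Genomics 5' chemistry) in CD45+ leukocytes that excluded propidium iodide and were flushed from the gastric mucosa of TxA23 mice, a line with a transgenic receptor on its T cells in which autoimmune gastritis arises. Pumps implanted at 3 months of age gave 800 ng of recombinant IL-27 (4 µg per mL in 200 µL) to 3 females, or PBS to 1 female and 1 male, and tissue was taken after 4 weeks. Every animal of both groups was TxA23, and the V segment of the transgene is not given in the sources used here. Each treatment was deposited as 1 library of pooled cells; the barcode suffixes mark 3 wells for IL-27 and 2 for PBS, and no label states that a well is a mouse. IL-27 against PBS therefore carries no test here, and p-values over wells measure only the spread between these wells, which may be technical. PBS well 2 alone held Y-linked UMIs, so the spread between the 2 PBS wells includes a difference in sex.

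Each developing T cell joins 1 Trbv gene to a diversity segment, a joining (Trbj) segment and a constant gene (Trbc1 or Trbc2), and pairs the product with an alpha chain built from Trav, Traj and Trac. A productive beta chain normally stops further Trbv rearrangement in that cell, which is called allelic exclusion, so a normal repertoire spreads over many Trbv genes with 1 per cell. A rearranged transgene can impose its own chain on the repertoire, and its promoter and enhancer decide which cells transcribe it. B and myeloid cells do not normally carry complete Trbv rearrangements.

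The 3' ends of the variable genes on which the results turn are shown first, since the codon of the conserved cysteine, in capitals, is where the variable gene hands over to the junction that no count table resolves. Sequences and positions are from GENCODE M21 on GRCm38 (mm10), read 5′ to 3′ along the gene's strand.
Trbv1, chr6:40891826-40891885, plus strand: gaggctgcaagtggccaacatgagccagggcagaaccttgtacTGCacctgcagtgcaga
Trbv31, chr6:41557691-41557750, minus strand: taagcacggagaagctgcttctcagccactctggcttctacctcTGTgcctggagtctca
Trbv13-2, chr6:41121773-41121832, plus strand: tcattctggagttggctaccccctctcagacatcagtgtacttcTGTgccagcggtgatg
Trbv13-1, chr6:41116409-41116468, plus strand: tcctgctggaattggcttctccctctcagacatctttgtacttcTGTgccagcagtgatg
Trbv30, chr6:41281931-41281990, plus strand: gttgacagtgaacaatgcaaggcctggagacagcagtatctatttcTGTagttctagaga
Over their coding sequences Trbv13-2 and Trbv13-3 were 90.6% identical, Trbv12-1 and Trbv12-2 88.2%, and Trbv13-1 and Trbv13-2 87.9%, so counts within these families are uncertain. Trbv1 was most like Trbv13-1, at 52.1%, near the median of 51.2% over the 231 pairs of variable genes.

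The joining segments and the alpha variable gene that accompanied Trbv1 outside T cells are shown for the same reason; in the joining segments the capitals mark the codons of the Phe-Gly-X-Gly motif that follows the junction.
Trbj1-1, chr6:41533864-41533911, plus strand: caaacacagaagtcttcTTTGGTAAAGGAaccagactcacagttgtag
Traj32, chr14:54186101-54186166, plus strand: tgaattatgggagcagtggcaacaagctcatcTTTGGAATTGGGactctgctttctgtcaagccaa
Trav14d-3-dv8, chr14:53078986-53079045, plus strand: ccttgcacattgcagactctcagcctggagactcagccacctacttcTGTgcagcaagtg

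There were 20897 barcodes with 80121995 UMIs for IL-27 and 12276 with 43501501 for PBS, with medians of 3079 and 2958 UMIs per kept cell. Gates on raw marker UMIs gave 2469 CD4 conventional T cells (Cd3 and Cd4, no Foxp3), 331 regulatory T cells (Cd4 and Foxp3) and 2100 CD8 T cells, all without a UMI of the B cell marker genes of the gate or of Lyz2, out of 32372 kept cells. The gates left out 3264 of 12369 Cd3+ cells for a B or myeloid UMI, 1105 with both Cd4 and Cd8 and 3058 with neither. PBS well 2 stood apart: it alone held Y-linked UMIs (3138), it gave only 152 CD4 and 224 CD8 cells, and more of its CD8 Trbv UMIs came from Trbv30 than from all Trbv genes other than Trbv1 and Trbv30 together. Several results that rest on it are given with and without it, and others by well. The 2 libraries shared 355 barcodes, and pairs of wells 46 to 71.

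All 22 variable genes and 3 of the 13 pseudogenes (Trbv10, Trbv22 and Trbv24) had a UMI in a T cell gate, and the other 10 pseudogenes had none. Pseudogenes gave 96 of 26351 Trbv UMIs (0.364%). In all, 18 genes reached 1% of Trbv UMIs in a gate and library. The 4 variable genes that did not were Trbv26, Trbv12-1, Trbv23 and Trbv21, with at most 0.614%, 0.492%, 0.127% and 0.0428%. Among the pseudogenes Trbv24 held most, with 37 UMIs in CD4, 5 in regulatory and 39 in CD8 cells. The genes lie on chromosome 6 over 666.46 kb from Trbv1, the first, to Trbv31, the last, which sits beyond the constant genes on the opposite strand.

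Trbv1 was the most abundant Trbv gene in every T cell gate, and its UMIs per cell in B cells overlapped those in CD4 cells. In CD4 cells it gave 1.66, 1.74 and 2.14 UMIs per cell with IL-27 and 1.75 and 2.40 with PBS. In B cells (Cd79a with a further B cell marker gene, no T cell marker) the same values were 1.52, 1.61 and 2.14, and 1.48 and 1.89. The ranges overlapped, and 73.5% of the 17216 B cells (median 2841 UMIs) held a Trbv1 UMI against 67.4% of CD4 cells (median 3746 UMIs). All Trbv genes other than Trbv1 gave 3.08 UMIs per CD4 cell and 0.00988 per B cell, so Trbv1 made up 99.4% of Trbv UMIs in B cells, with 99.0% to 99.6% by well.

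Trbv1 UMIs extended to other leukocytes, but not to all. Cells with Ncr1, a natural killer receptor gene, held 2.09 Trbv1 UMIs per cell (425 cells), and cells with Siglech, a plasmacytoid dendritic cell gene, held 3.90 (136 cells, median 6859.5 UMIs). Myeloid cells with Lyz2 held 1.59, with 0.5 to 3.08 by well. Other Trbv genes stayed at 0.00471, 0.0147 and 0.0118 UMIs per cell in the 3 classes. In 55 cells with S100a8, a neutrophil gene (median 1397 UMIs), Trbv1 gave 0.0364 UMIs per cell. In 46 cells with Cpa3, a mast cell protease gene (median 2820 UMIs), no Trbv1 UMI was found (exact 95% interval up to 7.71% of cells), and 41 of the 46 came from PBS well 2. The Cpa3+ cells held 7 UMIs of other Trbv genes, or 0.152 per cell, all of them in PBS well 2. In 357 cells with Trdc, the gamma-delta constant gene, Trbv1 gave 1.63 UMIs per cell and the other Trbv genes 3.39, with 2.73 to 4.92 by well. These marker classes were chosen after values had been seen. The near absence of Trbv1 in S100a8+ and Cpa3+ cells, and of other Trbv genes in B cells, shows that Trbv UMIs were not spread evenly over the classes. Whether a Trbv1 UMI in a T cell came from that cell's own receptor chain or from the source that gave it in B cells cannot be told apart at these counts, so the classes below are classes of UMIs.

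**Figure D1:**
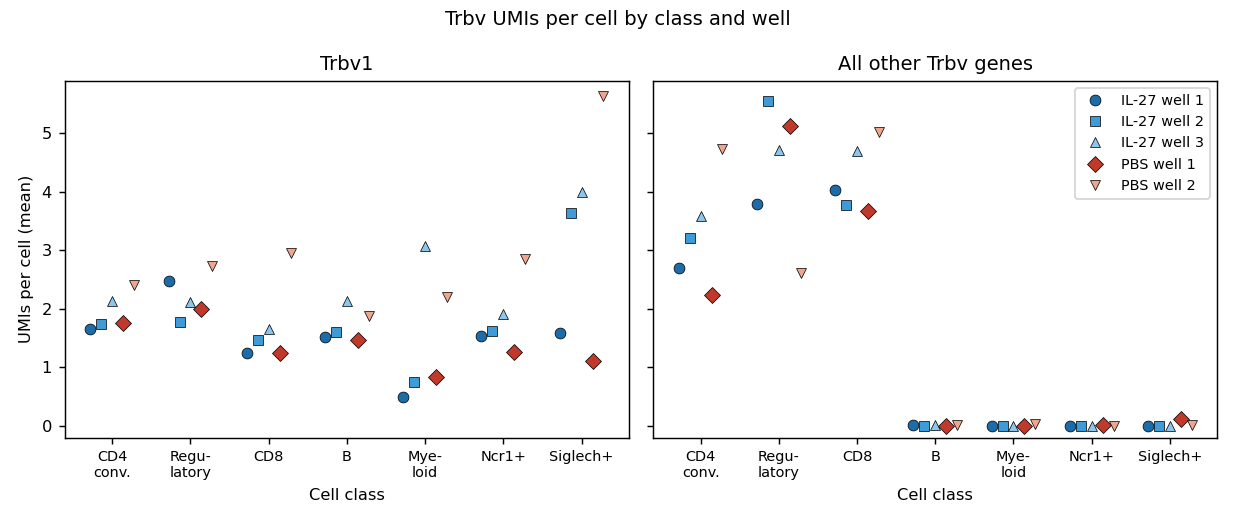
Mean UMIs per cell (y axis) of Trbv1 (left) and of all other Trbv genes together (right) by cell class (x axis), 1 point per well. Trbv1 lies between 0.5 and 5.64 in all 7 classes, while the other Trbv genes lie above 2 in the 3 T cell gates and below 1 in the other 4 classes plotted.

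Among CD4 conventional cells Trbv1 held 36.9% of Trbv UMIs in the IL-27 library (exact 95% interval 35.9 to 37.9) and 40.0% in the PBS library (38.1 to 41.8). By well the shares were 38.0%, 35.1% and 37.4% with IL-27 and 43.9% and 33.6% with PBS, so the PBS wells lay on both sides of the IL-27 wells. The next genes were Trbv31, with 9.05%, 11.7% and 13.8% against 11.8% and 12.0%, and Trbv13-2, with 9.31%, 12.4% and 10.3% against 9.08% and 13.4%. Trbv19 and Trbv13-1 followed, at 7.96% and 6.89% of the IL-27 library and 6.58% and 8.42% of the PBS library. Trbv19 held 3.04% in PBS well 1 and 12.3% in PBS well 2. Intervals cover counting error only. They treat UMIs as independent, though CD4 cells with only 1 other Trbv gene held 5.12 of its UMIs on average. They may therefore be too narrow.

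In regulatory cells Trbv1 held 39.5%, 24.2% and 31.0% with IL-27 and 28.1% and 51.1% with PBS, the latter resting on 49 and 50 cells. Averaged over wells this was 34.8% against 37.6% in CD4 conventional cells, a difference of -2.81 percentage points (SD 13.0, lower in 3 of 5 wells, exact two-sided sign-flip permutation p = 0.75, adjusted 0.931 over 36 gene and gate comparisons). The smallest p that 5 wells allow is 0.0625. In the edgeR quasi-likelihood fit over summed UMIs, with the well as a block, 11 Trbv genes were tested and 1 was called higher in regulatory cells, where 6.64% of all genes tested were called higher and 5.02% lower. That gene was Trbv20, with 8.07%, 4.33%, 6.07%, 12.6% and 0.373% of regulatory Trbv UMIs by well against 3.88%, 3.32%, 4.90%, 2.24% and 2.86% of CD4 ones. It was higher in 4 of 5 wells, with a log2 difference of 1.09 ± 0.34 (SE, adjusted p = 0.0406), and lower in PBS well 2. The call was lost in 7 of 15 alternatives, among them those without IL-27 well 2, IL-27 well 3 or PBS well 1, and without PBS well 2 a total of 3 Trbv genes were called higher. The Trbv1 difference turned to 0.432 percentage points without PBS well 1. Of 4 measured B cell marker genes 3 (Ighm, Igkc and Cd74) were called higher in regulatory cells, and their part in these values was not tested.

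CD8 cells differed from CD4 cells in the use of several Trbv genes. Trbv29, Trbv17, Trbv3 and Trbv16 averaged larger shares and Trbv31 and Trbv20 smaller ones. As shares over 5 wells none of these passed after adjustment (exact sign-flip permutation p = 0.0625 for 5 of them and 0.125 for Trbv16, adjusted 0.375 for each), and the adjusted p-values that follow are edgeR's for levels relative to all UMIs. Trbv29 held 6.65%, 3.63% and 4.99% of CD8 Trbv UMIs with IL-27 and 6.26% and 5.93% with PBS, against 1.54%, 1.33%, 0.565%, 2.70% and 0.277% in CD4 cells. Every CD8 value lay above every CD4 value, with a log2 difference in level of 2.17 ± 0.26 (SE, edgeR adjusted p = 0.0004). Trbv31 held 4.45%, 6.99%, 5.07%, 5.51% and 1.57% of CD8 Trbv UMIs, all below its lowest CD4 share of 9.05%, with a log2 difference in level of -1.24 ± 0.23 (adjusted p = 0.0044). Of 17 Trbv genes tested, 5 were called higher and 3 lower in CD8 cells, where 9.45% of all genes tested were called higher and 8.47% lower.

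Trbv16 (1.80 ± 0.21), Trbv3 (1.75 ± 0.27), Trbv17 (1.23 ± 0.14) and Trbv12-2 (0.90 ± 0.24) were the other genes called higher, as log2 differences with SE, and Trbv20 was called lower (-1.51 ± 0.33). Trbv20 averaged 1.17% in CD8 against 3.44% in CD4 cells, Trbv3 3.40% against 1.01% and Trbv17 3.03% against 1.38%, each in the same direction in 5 of 5 wells. Trbv16 averaged 5.33% against 1.67%, and PBS well 2 had no Trbv16 UMI in either gate. Trbv13-3 averaged 4.2% against 2.81% and went the same way in 5 of 5 wells, with an adjusted p of 0.0536. The other 8 genes tested were not called: Trbv15 stood at 1.45, Trbv14 at 1.18, Trbv19 at 0.07, Trbv13-1 at 0.06, Trbv2 at -0.07, Trbv13-2 at -0.13, Trbv4 at -0.40 and Trbv5 at -0.66. Without PBS well 2, 9 genes were called higher and 4 lower. Without IL-27 well 2 or well 3, 1 was called lower.

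Trbv1 itself held 23.5%, 28% and 26.1% of CD8 Trbv UMIs with IL-27 and 25.3% and 37.0% with PBS. The IL-27 library stood at 25.4% (24.5 to 26.4) and the PBS library at 31.7% (30.1 to 33.3), or 25.3% without PBS well 2. Trbv1 was lower than in CD4 cells in 4 of 5 wells, by a mean of -9.62 percentage points over all 5 (exact sign-flip permutation p = 0.125, adjusted 0.375). In PBS well 2 Trbv1 was higher, at 37.0% against 33.6%. As a level relative to all UMIs of a sum (CPM, counts scaled to a common total per well and class) it was called lower in CD8 cells (log2 -0.39 ± 0.11, edgeR adjusted p = 0.0343), a call lost in 8 of 15 alternatives, as was that of Trbv12-2. Markers of other cells moved with this comparison: 3 of 4 measured gamma-delta, 3 of 3 natural killer and 3 of 7 B cell marker genes were called higher in CD8 cells, and their part in it was not tested.

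**Figure D2:**
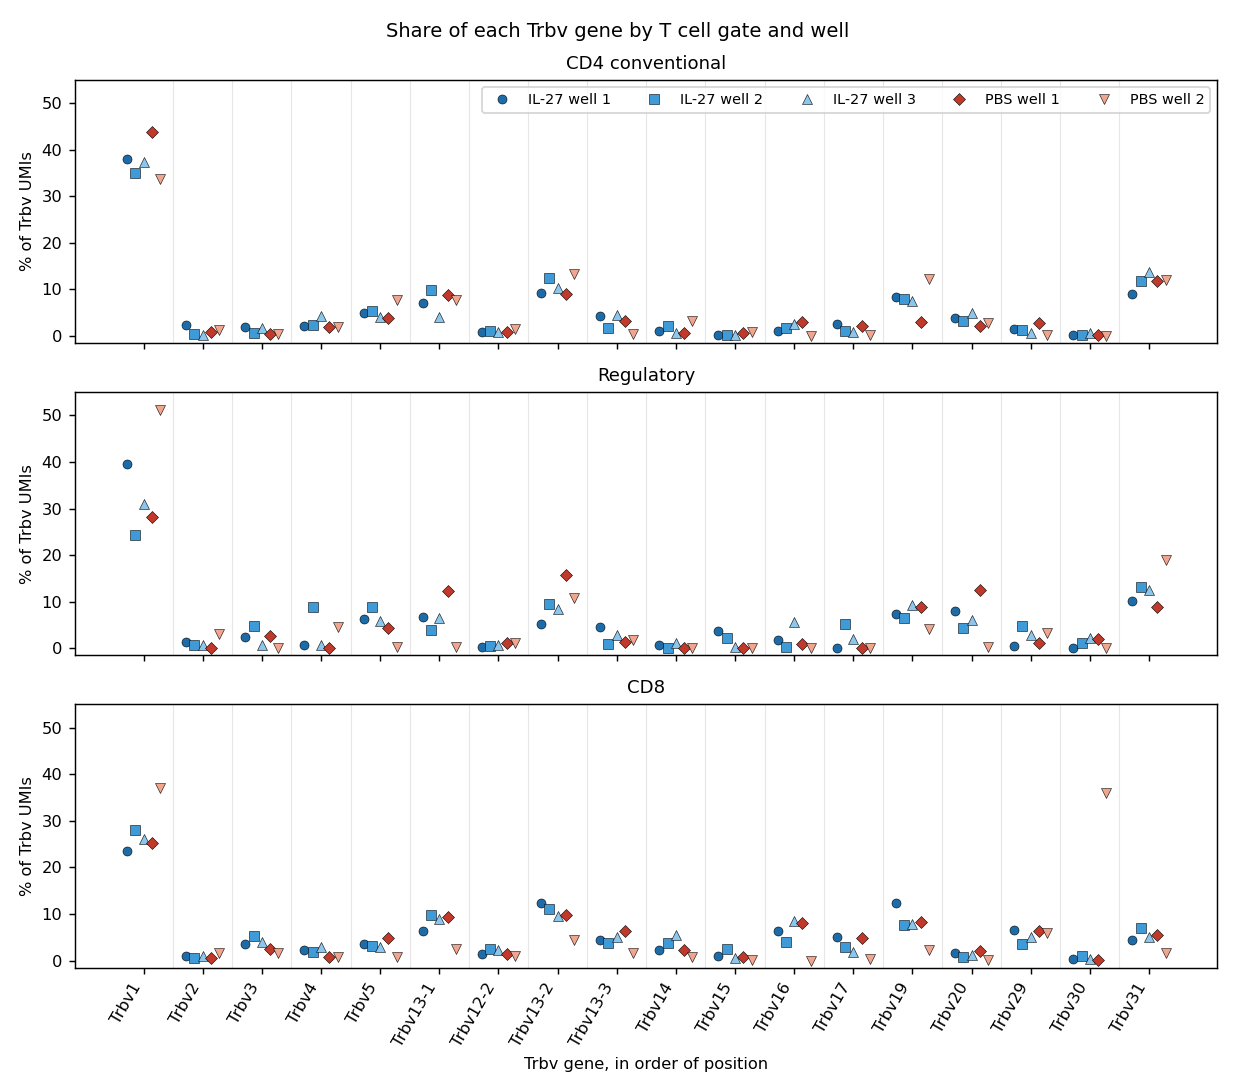
Share of Trbv UMIs (y axis, %) held by each of 18 Trbv genes (x axis, in genome order) in CD4 conventional, regulatory and CD8 T cells, 1 point per well. Trbv1 lies highest in each gate, and in CD8 cells PBS well 2 lies apart at Trbv30 with 35.9%.

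Some Trbv domains bind superantigens of endogenous mouse mammary tumour viruses, which delete the T cells that bear them in strains that carry the matching virus. A list of 5 such genes (Trbv12-1, Trbv12-2, Trbv15, Trbv16 and Trbv26) held 3.48% of Trbv UMIs in CD4 cells, 4.29% in regulatory cells and 9.23% in CD8 cells. By well the CD8 shares were 9.84%, 9.47% and 12.2% with IL-27 and 10.6% and 2.24% with PBS, against 2.41%, 3.74%, 3.83%, 4.88% and 2.49% in CD4 cells. In 4 of 5 wells the CD8 share was above the CD4 share, and in PBS well 2 it was below. In that well Trbv30 gave 643 of the 1789 CD8 Trbv UMIs, so the shares of other genes are taken over a total that Trbv30 enlarges. The list gave 40 of the 1789, against 27 of 1085 in its CD4 cells. Trbv12-2 and Trbv16 were the 2 members called higher in CD8 cells of 3 tested. Trbv26 ranged from 0.310% to 0.783% over the CD8 wells.

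Evenness over the genes other than Trbv1 was given as an effective number, the number of equally used genes that would give the same Shannon entropy. It was 12.6, 10.9 and 11.1 in CD4 cells with IL-27 and 11.6 and 8.98 with PBS. In CD8 cells it was 13.5, 14.0 and 14.2, and 13.1 and 5.80. Regulatory cells gave 11, 11.7 and 12.0, and 8.22 and 6.08, on far fewer cells. PBS well 2 had the lowest value in each gate.

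The low value in CD8 cells of PBS well 2 came with a single gene. Trbv30 UMIs were found in 124 of its 224 CD8 cells (55.4%, exact 95% interval 48.6 to 62.0), against 2 of 749, 5 of 431 and 2 of 397 in the IL-27 wells and 2 of 299 in PBS well 1. Within the same well 1 of 152 CD4 cells, 0 of 50 regulatory cells (exact interval up to 7.11%) and 11 of 3388 B cells held one, with a median of 1 Trbv30 UMI in those B cells against 4 in the CD8 cells. Of the 124 cells, 104 also held Trbv1 and 5 a further Trbv gene. Trbv30 gave 35.9% of CD8 Trbv UMIs in this well and 0.136% to 1.06% in the others.

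**Figure D3:**
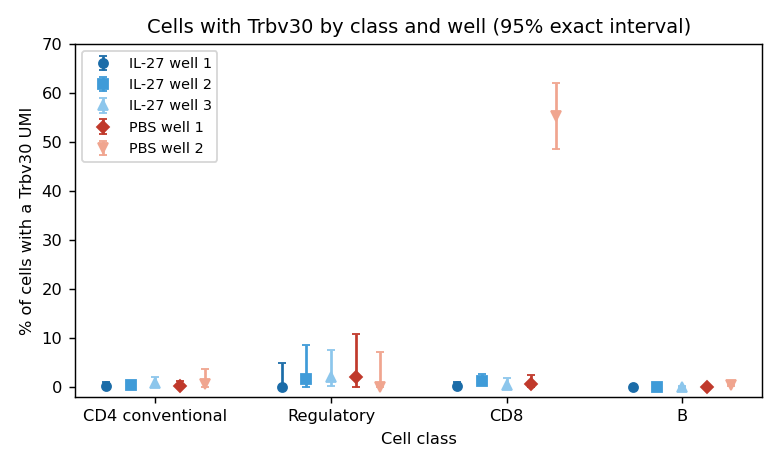
Percentage of cells with a Trbv30 UMI (y axis) by cell class (x axis) and well, with exact 95% intervals. The CD8 cells of PBS well 2 stand at 55.4%, and every other point lies at or below 2.13%.

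Those 124 cells also differed from the other 100 CD8 cells of the well in alpha chain genes and in the levels of other genes. Trav5-4 gave 21.1% of their Trav UMIs against 1 of 371 UMIs (0.270%) in the others, and Trav4-4-dv10 gave 16.3% against 5.39%. Traj32 gave 10 of 10 Traj UMIs against 4 of 6. Their 9 Trbj UMIs were split, with 4 from Trbj1-3 and 4 from Trbj2-7, in 4 cells each. Whether the 124 cells share 1 receptor was not tested. In CPM, Penk (an enkephalin precursor gene) stood at 1296 against 149, the chemokine gene Ccl3 at 3565 against 599, perforin (Prf1) at 1068 against 296, Pdcd1 (the PD-1 receptor) at 1221 against 537 and the exhaustion-linked factor Tox at 506 against 202. Tcf7, a factor of naive and memory T cells, stood at 1.64 against 124, Cd5 at 8.19 against 113 and the integrin gene Itgae at 14.8 against 107. Markers of other cells went both ways. Among those lower in the 124 cells, Tyrobp stood at 31.1 against 435 CPM, Fcer1g at 62.3 against 260 and H2-Aa at 32.8 against 211. Cd74 at 149 against 463, Ighm at 9.83 against 89.5 and Trdc at 68.8 against 179 were lower too. Higher were the natural killer markers Klrd1 (1416 against 556), Klre1 (295 against 55.4) and Eomes (587 against 203). Igkc (42.6 against 6.4), Tcrg-C2 (190 against 115) and Tcrg-C4 (270 against 162) were also higher. The part of these markers in the difference was not tested. The comparison is of cells of 1 well, was chosen after its values were seen and has no replicate. The exact Poisson intervals of each pair of CPM values named above did not overlap. That is no test of a difference, since the genes were named with their values known and the intervals cover counting error only. Other genes, Stat4 and Tbx21 among them, had overlapping intervals.

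Cells were then put in classes by the Trbv genes whose UMIs they held. In CD4 cells 953 of 2469 (38.6%) held Trbv1 only, 370 (15%) only 1 other Trbv gene and 529 (21.4%) both Trbv1 and 1 other, while 307 held none. In CD8 cells the order was different, with 366 of 2100 (17.4%), 524 (25.0%) and 703 (33.5%). The CD8 share with both was 31.1% in the IL-27 library, 24.1% in PBS well 1 and 63.0% in PBS well 2 (141 of 224). Cells with Trbv1 only held 3.00 Trbv UMIs on average and cells with 1 other gene 5.12 (CD4), at medians of 3742 and 3728 UMIs of all genes. Among B cells 12535 of 17216 (72.8%) held Trbv1 only.

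Of CD4 cells with a Trbv gene other than Trbv1, 58.9% (56.1 to 61.7) also held Trbv1. The share was 72.6% in regulatory and 57.4% in CD8 cells, against 73.5% of all B cells with a Trbv1 UMI. After thinning each cell to 1000 UMIs, which left out 58, 7 and 32 cells, the shares were 26.4%, 35.4% and 21.5%, against 41.1% in B cells. The exact intervals were 23.4 to 29.5, 27.7 to 43.7 and 18.9 to 24.3, so the B cell share lay above those of CD4 and CD8 cells and inside that of regulatory cells. Of the 85 CD4 cells with Trbv12-2 and at least 2 Trbv UMIs, 89.4% (80.8 to 95) also held a further Trbv gene other than Trbv1, against 78.3% for Trbv14 (56.3 to 92.5, 23 cells), 54.8% for Trbv13-2 and 28.2% for Trbv31. In CD8 cells Trbv12-2 and Trbv15 stood at 83.2% and 83.3%.

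Outside T cells the Trbv1 UMIs came mostly with 1 joining segment of each chain and 1 alpha variable gene, while the constant gene differed between classes. In B cells with Trbv1, Trbj1-1 gave 155 of 156 Trbj UMIs (99.4%), Traj32 182 of 184 Traj UMIs (98.9%), Trav14d-3-dv8 94.6% of 3923 Trav UMIs and Trbc1 89.0% of 3698 Trbc UMIs. B cells without a Trbv1 UMI gave 33 of 33, 98.0%, 93.6% and 86.4%. Siglech+ cells gave 7 of 7, 34 of 34, 98.7% and 95.3%, and Ncr1+ cells 4 of 5, 8 of 8, 92.7% and 44.9%, the other 55.1% of Ncr1+ Trbc UMIs being Trbc2. Trav14 has near-identical copies, so the copy named is the one to which counts were assigned.

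T cells shared these segments in part. Trbj1-1 gave 17 of 60 Trbj UMIs in CD4 cells with Trbv1 only (28.3%, 17.5 to 41.4) and 2 of 21 in those with 1 other Trbv gene (9.52%, 1.17 to 30.4), and the intervals overlapped. In CD8 cells it gave 18.8% and 15.6%. Traj32 gave 48.4% of Traj UMIs in CD4 cells with Trbv1 only, 42.6% with both and 27.3% with 1 other gene, and 43.9%, 42.3% and 41.9% in CD8 cells, with overlapping intervals. Trav14d-3-dv8 gave 15.9% of Trav UMIs in CD4 cells with Trbv1 only, 10.2% with both and 7.90% with 1 other gene. Trbc1 gave 29.4%, 21.8% and 18.2% of Trbc UMIs in the same order, and in CD8 cells 33.5%, 25.8% and 22.2%. In CPM, Trbc1 stood at 641, 587, 558, 608 and 584 in CD4 cells with Trbv1 only and at 315, 151, 237, 374 and 255 in those with 1 other gene. The wells of the 2 classes did not overlap, and Trbc1 was higher with Trbv1 only by 1.06 ± 0.13 (log2, SE, edgeR adjusted p = 4.3e-07).

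The alpha genes Trav4-4-dv10, Trav4-3 and Trav4-2 were lower with Trbv1 only. Trav4-4-dv10 stood at 42.8, 14.7, 60.9, 29.0 and 67.8 CPM against 165, 106, 305, 258 and 327 (log2 -2.58, adjusted p = 5e-13), Trav4-3 at a log2 difference of -2.40 and Trav4-2 at -3.15. As shares of Trav UMIs, Trav4-4-dv10 and Trav4-3 held 19.0% and 15.6% in CD4 cells with 1 other Trbv gene and 4.82% and 4.33% in those with Trbv1 only. Trav14d-3-dv8 was at a log2 difference of 0.45 (adjusted p = 0.118) and Trac, the alpha constant gene, at 0.082 (adjusted p = 0.692). Trbc2 was at 0.18 (adjusted p = 0.146). In CD8 cells Trav3-3 was higher with Trbv1 only (log2 1.96, adjusted p = 0.00046) and Trav4-3 lower (-1.88, adjusted p = 0.0068), while Trav4-4-dv10 stood at -0.14 (adjusted p = 0.862).

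**Figure D4:**
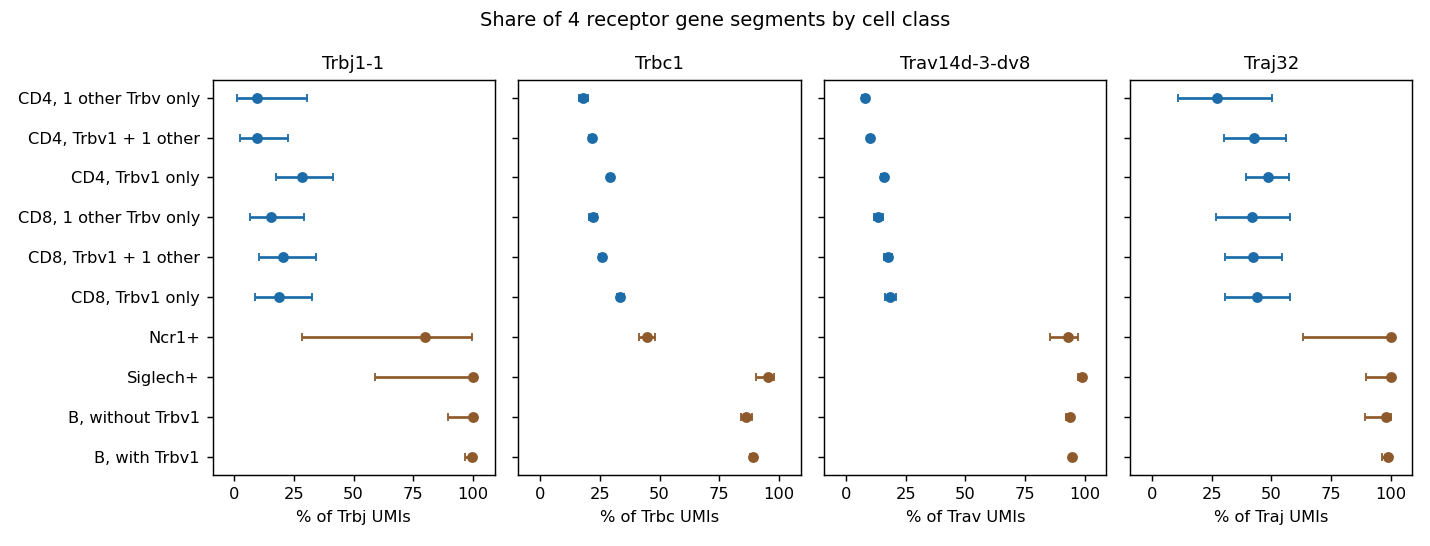
Share (x axis, %) of Trbj1-1, Trbc1, Trav14d-3-dv8 and Traj32 among the UMIs of their families by cell class (y axis), all wells together, with exact 95% intervals. B and Siglech+ cells lie at 86.4% or above in every panel, and T cell classes at or below 48.4%.

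Conventional CD4 cells with Trbv1 only differed in many genes from those with 1 other Trbv gene. Of the genes measured, 9 of 18 of T cell receptor signalling, 8 of 15 of anergy and 4 of 6 of co-inhibition were called higher, and 9 of 12 of effector memory, 4 of 7 cytotoxic and 6 of 8 interferon genes were called lower. Some genes are in more than 1 list, here and below, so the counts are not independent. Lag3 and Pdcd1 are in the anergy and co-inhibitory lists, and Ccl5 and Nkg7 in the cytotoxic and Th1 lists. With 280, 204, 222, 201 and 46 cells per well against 102, 103, 81, 63 and 21, 249 of 5085 genes were called higher (4.90%) and 382 lower (7.51%) at an adjusted p of 0.05, Trbv genes left out. DESeq2 called 117 and 231. Without IL-27 well 2, 161 were called higher.

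Hivep3, a zinc finger factor, showed the largest increase of the genes named by rule. It stood at 186, 158, 145, 151 and 146 CPM with Trbv1 only and at 23.2, 19.2, 22.7, 25.8 and 40.9 with 1 other gene, a log2 difference of 2.61 ± 0.19 (SE, edgeR adjusted p = 3.4e-11). Slc29a1, a nucleoside transporter, stood at 488, 422, 339, 447 and 464 against 108, 43.3, 94.1, 94.5 and 61.3 (2.25 ± 0.15). Itm2a, a membrane protein gene induced in activated and selected T cells, stood at 274, 363, 319, 297 and 83.4 against 61.9, 76.9, 61.7, 77.3 and 0. For all 3 genes the wells of the 2 classes did not overlap.

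Co-inhibitory and regulatory genes were among the others called higher. Lag3, an inhibitory receptor that binds MHC class II, rose by 1.85 ± 0.15 on the log2 scale, the inhibitory ligand Cd200 by 1.93 ± 0.15 and the costimulatory receptor Tnfrsf9 by 1.87 ± 0.16. Ikzf2 (Helios), a factor of regulatory and chronically stimulated T cells, rose by 1.81 ± 0.13. Izumo1r, the folate receptor 4 gene found on anergic and regulatory cells, stood at 1340, 1280, 1320, 1260 and 839 against 570, 476, 477, 644 and 286 (1.16 ± 0.09). The deacetylase gene Hdac7 and the parathymosin gene Ptms completed the 10 with 1.65 and 1.22.

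Il7r, the receptor for the survival cytokine IL-7, was the lowest of the genes named. It stood at 46.9, 55.4, 44.3, 46.5 and 182 CPM with Trbv1 only and at 307, 315, 247, 193 and 531 with 1 other gene, and fell in 5 of 5 wells by 2.47 ± 0.14 on the log2 scale (edgeR adjusted p = 9.3e-14). Igfbp4 stood at 101, 166, 116 and 187 against 596, 676, 519 and 988 in the first 4 wells and at 5.21 against 0 in PBS well 2, so 4 of 5 wells showed the direction (-2.41). Rflnb (-2.27), Arl4c (-2.10), Gm2682 (-1.95), Emp3 (-1.15), Tagln2 (-1.10), Selplg, which encodes the selectin ligand PSGL-1 (-1.07), and the sodium pump subunit Atp1b3 (-1.02) were lower in 5 of 5 wells. Crip1 (-1.81) was as well, but its wells overlapped between the classes. All 339 values of the 20 genes under the alternatives kept direction and call.

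Of 18 measured genes of the T cell receptor signalling response, 9 rose and 2 fell, with a median log2 difference of 0.66 against 0.0052 over all genes. The early genes Nr4a1, Egr1 and Egr2 and the repressor Nab2 were among them: Nr4a1 stood at 302, 302, 325 and 330 against 157, 86.5, 35.7 and 133 in the first 4 wells and at 57.4 against 266 in PBS well 2. Cd5 and Cd6, surface genes that restrain receptor signals, were the 2 that fell (-0.75 and -0.65). Of 15 anergy genes 8 rose, among them Sox4 (2.11), Myb (1.45) and Tox (1.22), and Dgka fell. Of 6 co-inhibitory genes 4 rose (Pdcd1, Ctla4, Lag3 and Cd200), with a median of 1.11. Of 9 regulatory T cell genes 4 rose (Ikzf2, Ctla4, Tgfb1 and Izumo1r) and none fell.

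Effector and tissue genes went the other way. Of 12 effector memory genes 9 fell and none rose, with a median of -0.85, among them S100a4 (-2.25), S100a6 (-2.09) and the filament gene Vim (-0.90). Of 7 cytotoxic genes 4 fell (Gzmk, Nkg7, Ccl5 and Ccl4). Ccl5 ranged widely with 1 other gene, at 142, 310, 2660, 38.6 and 2870 CPM against 56.8, 49.8, 12.2, 12.8 and 1370. Of 8 interferon genes 6 fell and Isg15 rose (0.56). Of 13 naive and central memory genes 5 fell, Klf2 (-0.82) and the egress receptor S1pr1 (-1.05) among them, and Foxp1 and Bach2 rose, while Ccr7 and Lef1 stood at -0.13 and -0.10 and were not called. Each of these lists was chosen with earlier results known.

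Smaller lists were mostly uncalled. Of 4 measured Th1 genes 3 fell (Il18r1, Ccl5 and Nkg7), of 2 Th2 genes Igfbp7 rose, of 5 follicular helper genes Cxcr5 rose, of 5 proliferation genes Stmn1 rose, and the single Th17 gene measured was not called. The receptor complex and its proximal kinases were measured in full, and 4 of 17 rose (Trbc1, Zap70, Cd28 and Cd2) and 3 fell (Lat and Thy1 among them). Of 6 genes of beta chain recombination and allelic exclusion 2 were measured and neither was called.

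Markers of other cells were low in both CD4 classes. Summed over the B cell list they reached 163 to 302 CPM with Trbv1 only and 195 to 266 with 1 other gene, with Cd79a and Ms4a1 among those at 0 by the gate, and of 3 list members measured Ighm rose and H2-Aa fell. Myeloid markers reached 99.5 to 219 against 120 to 136, with Lyz2, Csf1r and S100a8 at 0. Natural killer markers reached 26.0 to 396 against 36.1 to 103, and gamma-delta markers 17.4 to 83.4 against 47.2 to 101. None of the 3 red cell and stress genes measured was called, and none of the 10 gastric epithelial genes had enough UMIs to be tested.

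The share of cells with a UMI pointed the same way as the levels. Ikzf2 was found in 57.9% of CD4 cells with Trbv1 only and 18.4% of those with 1 other gene, Izumo1r in 84.8% and 54.3%, Tox in 59.4% and 25.4% and Il7r in 10.9% and 37.6%, at near equal median depths. Il2ra, the high-affinity IL-2 receptor chain of regulatory cells, was found in 7.24% (5.68 to 9.07) and 5.95% (3.76 to 8.86). In B cells Ikzf2 was found in 0.476%. With cells holding a Foxp3, Il2ra or Ikzf2 UMI left out of the CD4 gate, 140 genes were called higher and 226 lower.

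**Figure D5:**
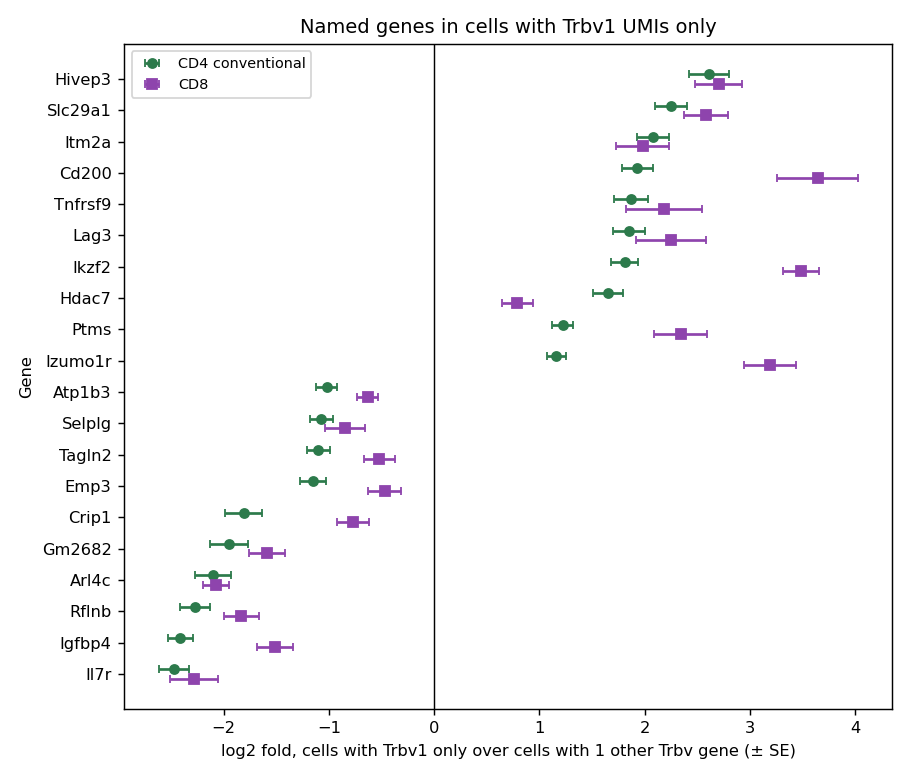
log2 difference (x axis, ± SE) between cells with Trbv1 only and cells with 1 other Trbv gene for the 20 genes named in CD4 cells (y axis), in CD4 and in CD8 cells. All 20 lie on the same side of 0 in both gates, from -2.47 (Il7r) to 3.64 (Cd200 in CD8 cells).

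CD8 cells with Trbv1 only differed from those with 1 other gene in 315 of 4867 genes called higher (6.47%) and 478 lower (9.82%), and DESeq2 called 160 and 268. Median depths were 4713.5 and 5594 UMIs, so these classes were less alike in depth than the CD4 classes. Without PBS well 2, which held 19 and 29 such cells, 552 were called higher. Without IL-27 well 1, IL-27 well 3 or PBS well 1, 154, 180 or 190 were called higher and 247, 307 or 307 lower. Ikzf2 stood at 294, 284, 359, 307 and 165 CPM against 19.9, 17.5, 41.0, 17.6 and 19.3 (log2 3.48 ± 0.17, edgeR adjusted p = 2.4e-09), with no overlap between the wells. The natural killer granule gene Nkg7 fell by 1.55 ± 0.12, and the cytotoxic factor Eomes by 1.76 ± 0.17.

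Of the CD8 lists, 6 of 6 measured regulatory genes and 5 of 5 co-inhibitory genes rose (medians 2.61 and 2.25), as did 7 of 8 proliferation genes, 9 of 14 signalling genes and 7 of 12 anergy genes. Mki67, a gene of dividing cells, stood at 30.6, 23.1, 25.6, 29.5 and 38.2 against 0.902, 2.91, 0, 3.90 and 0. All 8 measured Th1 genes and all 6 cytotoxic genes fell, 8 of 15 naive and central memory genes fell, and 4 of 17 receptor complex genes rose (Trbc1, Trbc2, Zap70 and Cd28). Of 2 natural killer marker genes measured, Klrd1 and Eomes, both fell, and of the gamma-delta list Trdc fell. Summed B, myeloid and natural killer markers with Trbv1 only reached 3560, 3980 and 3880 CPM in PBS well 2, against medians over wells of 267, 95.9 and 175, and the counts of calls without that well are those given above.

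The 2 gates shared much of this difference. Among the 4588 genes tested in both, 138 were called higher in both, which is 61.6% of the CD4 calls and 44.7% of the CD8 calls, and 230 were called lower in both (64.4% and 56.4%). One gene was called lower in CD4 and higher in CD8 cells, and none the reverse. Both gates come from the same wells, and no test of the overlap was made.

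CD4 cells with both Trbv1 and 1 other Trbv gene lay between the classes for several genes, and are given beside them without a test of the difference, since the contrasts share cells. Against cells with 1 other gene, 75 of 4611 genes were called higher (1.63%) and 67 lower (1.45%); against cells with Trbv1 only, 274 of 6852 were called higher (4%) and 155 lower (2.26%). Hivep3 stood at 1.26 above the former and -1.36 from the latter on the log2 scale, Ikzf2 at 0.87 and -0.95, Il7r at -0.94 and 1.55, and Rflnb at -0.95 and 1.33. Itm2a was not called against the former (0.35, adjusted p = 0.463) and was lower than in the latter (-1.70). Against Trbv1 only, 11 of 19 signalling genes fell and 9 of 13 effector memory, 5 of 7 cytotoxic and 5 of 10 proliferation genes rose, Ccl5 by 3.12. Without IL-27 well 2 or well 3 the calls against 1 other gene fell to 27 and 28 or 40 and 33, and those against Trbv1 only to 154 and 77 or 153 and 79; without PBS well 1, 40 were lower and without PBS well 2, 105 were lower against 1 other gene. Both contrasts were added after the data had been seen.

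Regulatory cells allowed the contrast in IL-27 wells 1 and 3 only, with 26 and 20 cells against 10 and 15. Of 1063 genes tested 4 were called higher (0.376%) and 2 lower (0.188%), and DESeq2 called 0 and 1; 52 had an unadjusted p under 0.05. Penk stood at 344 and 565 CPM with Trbv1 only against 0 and 17.6, the checkpoint gene Ctla4 at 167 and 552 against 76.9 and 70.5, the costimulatory receptor gene Tnfrsf4 at 865 and 1120 against 269 and 282, and Tnfrsf9 at 428 and 498 against 38.5 and 176. Klf2 was lower, at 270 and 148 against 808 and 459. Gm42418 was lower as well, at 13100 and 9170 CPM with Trbv1 only against 50600 and 24100. Whether its high level in cells with 1 other gene had a part in the other values was not tested.

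Another Trbv gene gave few calls in the same kind of contrast. Trbv31, second to Trbv1 in CD4 UMIs over all wells though behind Trbv13-2 in 3 of 5 wells, was set against the remaining Trbv genes in CD4 cells without Trbv1, which 3 wells allowed (24, 23 and 14 cells against 78, 80 and 67). Of 2335 genes 1 was called higher and 1 lower (0.0428% each, 0.0857% together), with 128 at an unadjusted p under 0.05; fewer cells than in the Trbv1 contrast limit it. The higher gene was Ephb6, a kinase-dead ephrin receptor gene expressed in T cells, at 69.9, 107 and 79.4 CPM with Trbv31 against 0, 3.02 and 12.2 (log2 4.07 ± 0.74, edgeR adjusted p = 0.00016). Ephb6 (chr6:41605482-41620509, plus strand) lies 47.03 kb beyond Trbv31 (chr6:41557691-41558452, minus strand). Nkg7 was lower (-4.53, adjusted p = 5.8e-11). Without IL-27 well 1 or well 2 no gene was called higher and 2 were called lower, and without IL-27 well 3, 3 were called lower.

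IL-27 against PBS was described within each CD4 class, at a 1.5-fold change of summed CPM and with no test. With Trbv1 only, 373 of 7218 genes were higher with IL-27 (5.17%) and 195 lower (2.70%), and 382 (5.29%) passed this fold either way with no overlap between IL-27 and PBS wells. With 1 other Trbv gene 281 of 3811 were higher (7.37%) and 149 lower (3.91%), and 293 (7.69%) passed it with no overlap. These counts moved with single wells: with Trbv1 only they were 1035 and 1207 without PBS well 1 and 524 and 115 without PBS well 2. With 1 other gene they were 567 and 423, and 415 and 172; without IL-27 well 1 they were 177 and 99, and without IL-27 well 2, 147 were higher.

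Within the Trbv1 class the naive factor gene Bach2 stood at 85.6, 120 and 142 CPM with IL-27 and at 55.8 and 31.3 with PBS. The chemokine receptor gene Cxcr6 stood at 0.823, 4.52 and 6.64 against 8.13 and 209, and Il18r1, an IL-18 receptor chain, at 5.76, 7.92 and 13.3 against 18.6 and 41.7. For these 3 genes the wells of the treatments did not overlap. Cxcr6 was high in PBS well 2 alone, however, and its value in PBS well 1 (8.13) lay close to that in IL-27 well 3 (6.64). All 6 measured cytotoxic genes and 4 of 5 Th1 genes were at least 1.5-fold lower with IL-27, but Ccl5, at 56.8, 49.8 and 12.2 against 12.8 and 1366, was high in PBS well 2 alone. Nkg7, Ccl4, Eomes and Cst7 also had their highest value there and overlapped between treatments. Natural killer markers summed to 396 CPM in that well against a median over wells of 55.1, the 1 such gene measured (Eomes) was lower with IL-27 as well, and their part in these values was not tested. With 1 other Trbv gene, 3 of 8 cytotoxic genes were higher with IL-27 and 1 lower, and Ccl5 stood at 902 against 877 CPM over the libraries. Trbc1 differed little between treatments in the Trbv1 class, at 600 against 603 CPM.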

How the data were processed

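Single-cell RNA (10x Genomics 5' chemistry) was measured in 2 libraries, IL-27 and PBS. The authors deposited raw UMI count matrices; reads were processed with Cell Ranger 3.0.0 against mm10, per the submitters' processing notes, while the matrices name version 3.1.0, per the file headers. Counts are not normalized, and transcripts of near-identical Trbv, Trav and Trbc genes cannot be assigned with certainty.

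Cells with at least 200 genes and at most 10% mitochondrial UMIs were kept, without removing doublets; Scrublet calls per well were tried as an alternative, and in PBS well 2 the caller marked too few cells to have worked. Wells were read from barcode suffixes. T cells had at least 1 UMI of Cd3d, Cd3e or Cd3g; the gates on Cd4, Cd8a, Cd8b1 and Foxp3 are given with the results. Myeloid cells had at least 3 Lyz2 UMIs. The Ncr1+, Siglech+, S100a8+, Cpa3+ and Trdc+ classes and the Trbv30 comparison were chosen after values were seen.

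UMIs were summed per well and class with at least 10 cells, and tested in edgeR 4.0.16 (limma 3.58.1, R 4.3.3) by the quasi-likelihood test with TMM scaling, filterByExpr and the well as a block, with Benjamini-Hochberg adjustment over all genes tested and calls at 0.05. In data simulated for the CD4 contrast over 4889 genes, the share of changed genes called was 43.8% at 1.5-fold, 91.9% at 2-fold and 100% at 4-fold, beside 0.085% of unchanged genes. The simulation gave all genes the same dispersion, and the factor of each well was shared by both classes. Class differences that change between wells, as seen for Nr4a1 and Igfbp4, were not simulated beyond that dispersion. These shares may therefore be more favourable than those in the real data. Shares were compared by an exact sign-flip permutation test over 5 wells, two-sided. Intervals are exact Clopper-Pearson or Poisson (95%) and cover counting error only. Those over UMIs treat the UMIs of 1 cell as independent and may be too narrow. IL-27 against PBS used genes with at least 50 summed UMIs and a pseudocount of 1 CPM. Thinning was to 1000 UMIs per cell. Alternatives were DESeq2 1.42.0 and its size factors, no block, no filter on low counts, other cell filters and gates, and leaving out each well. Named genes were the 10 with the lowest p in each direction, without antigen receptor, ribosomal, mitochondrial, sex-linked and haemoglobin genes, plus members of the lists. Members and lists were chosen with earlier results of these data known. Python 3.11.15, numpy 2.4.6, scipy 1.17.1, pandas 2.3.3, scanpy 1.11.5 and Biopython 1.88 were used, with GENCODE M21 for positions and sequences. Some genes of the gates and lists are not reported here.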

Additional observations from a re-analysis of the deposited data

Results flagged for a closer look

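Trbv15, a minor Trbv gene, differed in sign between the treatments in its share of regulatory minus CD4 conventional Trbv UMIs. The difference was 3.6, 1.85 and 0.104 percentage points with IL-27 and -0.689 and -0.83 with PBS, so all IL-27 wells lay on 1 side of 0 and both PBS wells on the other. The difference between treatments was not tested. PBS regulatory cells held no Trbv15 UMI in either well, on 49 and 50 cells, so the PBS differences could not lie above 0. Trbv15 was flagged with the values of all Trbv genes known. How often such a split arises from the spread between wells alone was not tested.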

How the results depend on the processing

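IL-27 and PBS could not be paired, because each treatment has 1 deposited library and the labels give no replicate numbers. Gates and classes were compared within wells, with the well as the pair or block. All 339 alternative values of the 20 named CD4 genes kept direction and call. Of 254 values for Trbv genes in CD8 minus CD4, 219 kept them, 21 lost the call and 14 gained it; of 157 in regulatory minus CD4, 146 kept them, 7 lost it, 3 gained it and 1 reversed. The cause was not tested for the changes below, except that fewer cells or wells are used where any are left out. The cells of 2000 to 8000 UMIs were an alternative added after seeing the data.

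The Trbv1 percentage in CD4 cells became 29.5 (IL-27) and 31.0 (PBS) without Foxp3, Il2ra or Ikzf2 UMIs, 51.9 and 58.5 as a share of cells, and 50.8 and 53.6 with 1 UMI at most per cell and gene. As a share of cells and with 1 UMI at most it was 38.0 and 45.5 (regulatory, IL-27), 55.2 and 50.3 (regulatory, PBS), 26.9 and 38.6 (CD8, IL-27) and 29.7 and 41.7 (CD8, PBS). Leaving out 1 well gave 33.6 to 43.9 (CD4, PBS), 28.2 to 34.6 and 28.1 to 51.1 (regulatory), and 24.5 to 27.0 and 25.3 to 37.0 (CD8). The regulatory minus CD4 difference reversed to 5.17 with the stricter CD4 gate and ranged from -7.89 to 0.432 without 1 well, and the log2 difference of Trbv31 reversed to -0.37 with that gate.

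For Trbv1 only against 1 other gene in CD4 cells, 140 genes were higher and 226 lower with the stricter gate, 410 and 588 with classes by more than 50% of Trbv UMIs, 117 and 231 by DESeq2, and 161 to 317 and 258 to 474 without 1 well. Trbj, Trbc and Trav genes called higher were 3 with stricter cell filters, 2 with the stricter gate, 4 by majority, 2 in cells of 2000 to 8000 UMIs, 6 without the low-count filter and 1 to 2 without 1 well; lower were 6 by majority, 6 without the filter and 2 to 4 without 1 well. In CD8 cells DESeq2 called 160 and 268, the fit without a block 176 and 190, the unfiltered fit 514 higher, and leaving out 1 well 154 to 552 and 247 to 640. In regulatory cells DESeq2 called 0 and 1, the unfiltered fit 2 and 0 and the fit without a block 2 and 1. For Trbv31 the unfiltered fit called 5 and 10, DESeq2 0 lower, and leaving out 1 well 0 to 1 and 1 to 3.

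Trbv genes higher in regulatory cells were 0 with the stricter gate, by DESeq2 and without a block, 3 in cells of 2000 to 8000 UMIs, 5 unfiltered and 0 to 3 without 1 well; 1 was lower with the stricter gate and 1 unfiltered. In CD8 cells 3 were higher with the stricter gate, 10 unfiltered, 2 without a block and 4 to 9 without 1 well, and 1 to 4 lower. For IL-27 against PBS, 239 were higher with Trbv1 only under the stricter gate and 292 lower with 1 other gene by majority; without 1 well the ranges were 279 to 1035 and 115 to 1207 (Trbv1 only) and 147 to 567 and 99 to 423 (1 other). Few cells in PBS well 2 and in regulatory classes limit those values.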
